A study of Homo sapiens with 9 samples.

Results

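The genes described here are 36 genes of the unfolded protein response and the amino acid response, read from a list of symbols in the gene count files of U251 cells, a human glioblastoma line. All 36 were among the 20848 genes of the files, and all 36 passed the filter on low counts that kept 13856 genes. They were divided into 16 genes of the endoplasmic reticulum (ER) chaperone arm and 20 genes of the ATF4 arm. The study asked which transcripts change in level or splicing once cells lose Musashi1, an RNA-binding protein encoded by MSI1, and where that protein touches RNA. RNA-seq was done on 3 control libraries (titled WT, labelled wild type) and 3 libraries of the MSI1 knockdown, all from U251 cells. iCLIP, which uses ultraviolet light to crosslink a protein to RNA and reads the crosslinked nucleotide, was done with an antibody against MSI1 in 3 further samples of control cells. The labels do not give the means of the knockdown or what the control cells received. Nothing states that the replicates came from separate cultures, and the protocol text says that replicates were combined, so p-values measure the spread between these libraries, which may be technical.

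The unfolded protein response keeps protein folding in the ER in balance with demand. When unfolded proteins accumulate, the sensor ATF6 is cut to release a transcription factor, and the sensor IRE1 splices XBP1 mRNA into a form that encodes another. Both act on genes for chaperones, disulfide isomerases and ER-associated degradation. Another sensor, PERK, phosphorylates the initiation factor eIF2α, as do kinases that sense amino acid shortage, haem or viral RNA, and this favours translation of ATF4. ATF4 then drives genes of amino acid synthesis, uptake and tRNA charging, and the stress effectors DDIT3 (CHOP), CHAC1 and TRIB3. The arms can therefore move together under ER stress or apart when only eIF2α signalling changes. Glioblastoma cells are known to use both for growth under nutrient limitation.

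Promoter sequences of the members are shown first, since they hold the elements through which the factors of each arm are known to act. The table of RefSeq promoters (GRCh38.p14, 250 bases before to 50 after each start site) held 33 of the 36 members. PSPH, SHMT2 and SLC7A11 had no entry. The ER stress response element (ERSE, CCAAT, then any 9 bases, then CCACG) was found on either strand in 6 ER arm members, HSPA5, HSP90B1, CALR, PDIA6, XBP1 and CRELD2, and in no ATF4 arm member. It was present in 27 of 35116 promoters of this length (0.0769%). Each line gives the sequence in the direction of the gene (minus strand for HSPA5, PDIA6 and XBP1, plus strand for HSP90B1, CALR and CRELD2), with the matched element in capitals. In CALR and CRELD2 the element lies on the opposite strand. HSP90B1 held a further ERSE match on the opposite strand, at chr12:103930321-103930339, which is not printed.
HSPA5, ERSE, chr9:125241361-125241439: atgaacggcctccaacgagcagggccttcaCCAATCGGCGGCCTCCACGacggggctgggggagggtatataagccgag
HSP90B1, ERSE, chr12:103930186-103930264: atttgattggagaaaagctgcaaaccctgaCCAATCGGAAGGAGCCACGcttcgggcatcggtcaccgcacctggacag
CALR, ERSE, chr19:12938359-12938432: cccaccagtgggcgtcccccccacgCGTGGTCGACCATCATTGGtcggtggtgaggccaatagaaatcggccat
PDIA6, ERSE, chr2:10812823-10812901: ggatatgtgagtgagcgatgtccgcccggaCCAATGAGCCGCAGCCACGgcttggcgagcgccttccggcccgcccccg
XBP1, ERSE, chr22:28800573-28800651: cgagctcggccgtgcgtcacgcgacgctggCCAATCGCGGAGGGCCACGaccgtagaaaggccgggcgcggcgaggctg
CRELD2, ERSE, chr22:49918524-49918602: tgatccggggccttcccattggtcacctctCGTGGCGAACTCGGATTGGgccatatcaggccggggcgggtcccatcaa

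The second element, ERSE-II (ATTGG, any 1 base, CCACG), was present in HYOU1, SDF2L1 and HERPUD1 and in 0.0541% of all promoters. The core of the unfolded protein response element (TGACGTGG), which XBP1 protein binds, was present in HYOU1 alone, where it overlaps an ERSE-II match, and in 0.729% of all promoters. The C/EBP-ATF response element (CARE, TGATGNAA), the element bound by ATF4 with a C/EBP partner, was present in HERPUD1 of the ER arm, in ATF3, CHAC1, ASNS and SLC3A2 of the ATF4 arm, and in 3.62% of all promoters. HERPUD1, on the plus strand, was the member that held both an ERSE-II and a CARE, the latter on the opposite strand. CHAC1 (plus strand, element on the opposite strand) and ASNS (minus strand) are printed because they had the largest log2 differences of the ATF4 arm in the RNA-seq data. These matches are descriptions of the letters only, and absence of a match in MANF, DNAJB11 and the other members refers to this window alone.
HERPUD1, ERSE-II, chr16:56931995-56932065: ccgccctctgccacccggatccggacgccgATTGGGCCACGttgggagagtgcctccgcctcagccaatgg
HERPUD1, CARE, chr16:56931936-56932003: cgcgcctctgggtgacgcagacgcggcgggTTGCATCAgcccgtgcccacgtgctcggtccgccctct
CHAC1, CARE, chr15:40953232-40953299: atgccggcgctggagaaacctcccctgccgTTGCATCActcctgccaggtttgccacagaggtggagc
ASNS, CARE, chr7:97872439-97872506: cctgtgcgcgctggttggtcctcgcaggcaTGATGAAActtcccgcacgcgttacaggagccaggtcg

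The libraries held 32919299 to 47277016 counted reads. Levels are given as normalised CPM, the count of a gene relative to the library total with edgeR's TMM factors, and always in the order of replicates 1, 2 and 3. MSI1 was at 16.05, 17.7 and 7.59 CPM in the controls and at 3.15, 5.11 and 2.26 in the knockdowns, so each knockdown library was below each control library. Its log2 fold change was −1.97, and edgeR's quasi-likelihood test gave an adjusted p of 0.0699, or 0.00279 in a fit that holds the replicate number as a block. On the first principal component, which held 62.5% of the variance, the third control library lay far from the other 5, and the values of the members without it are given further on. Of the glioma and astrocyte markers, VIM, CD44 and NES were abundant while AQP4 and OLIG2 were at or near 0. Of the 7 tested, 4 had positive and 3 negative log2 fold changes. SOX2 (−0.76) fell in the fit without the block (adjusted p = 0.0432 by edgeR). Among markers of other cell types, PTPRC (leukocytes) and PECAM1 (endothelium) were at or near 0. In controls CD68 (leukocytes) was at 6.54, 6.07 and 3.95 CPM and SYT1 (neurons) at 18.5, 21.0 and 27.7. The control means of VWF (endothelium) and MBP (oligodendrocytes) were 0.315 and 1.25 CPM. The summed level of 8 markers of other cell types was 58.6 to 90.2 CPM in controls and 121 to 206 in knockdowns. Without COL1A1, a collagen gene listed as a marker of fibroblasts, it was 26.4 to 33.1 and 30.1 to 32.8. COL1A1 was at 56.5, 61.0 and 25.5 CPM in controls and 91.3, 175 and 103 in knockdowns. Its log2 fold change was 1.37 (adjusted p = 0.135 by edgeR, 0.0155 with the block).

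The ER chaperone arm lay mostly above control in the knockdown and the ATF4 arm lay below it. The median log2 fold change was 0.23 for the 16 ER arm genes, 12 with a positive and 4 with a negative value, and −0.39 for the 20 ATF4 arm genes, of which 0 had a positive and 20 a negative value. Without control replicate 2 the ATF4 arm median was −0.24. Over all 13856 genes tested the median was −0.04, with 6293 positive and 7563 negative values. In the fit without a block, 0 of the 16 ER arm genes passed the threshold of 0.05 on the adjusted p of edgeR's quasi-likelihood test (5 were below 0.05 unadjusted), and 1 of the 20 ATF4 arm genes, CHAC1, fell (8 were below 0.05 unadjusted). Of all genes tested, 0.772% rose and 0.902% fell on the adjusted p, and 2154 of the 13856 were below 0.05 unadjusted. Deviations from group means correlated between same-numbered libraries, at 0.32, 0.73 and 0.75 for replicates 1, 2 and 3. Control replicate 1 went more with knockdown replicate 2 (0.49), so the pairing of replicate 1 is less certain. Deviations within a group sum to 0, and in most libraries they moved with GC content, as described further on. The correlations therefore do not show that same-numbered libraries were true pairs. With the replicate number as a block 6 ER arm genes rose and 2 fell while 8 ATF4 arm genes fell and 0 rose. The shares over all genes tested were 7.04% higher and 10.3% lower. In bulk RNA, fewer cells of a type and less RNA per cell cannot be told apart.

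**Figure D1:**
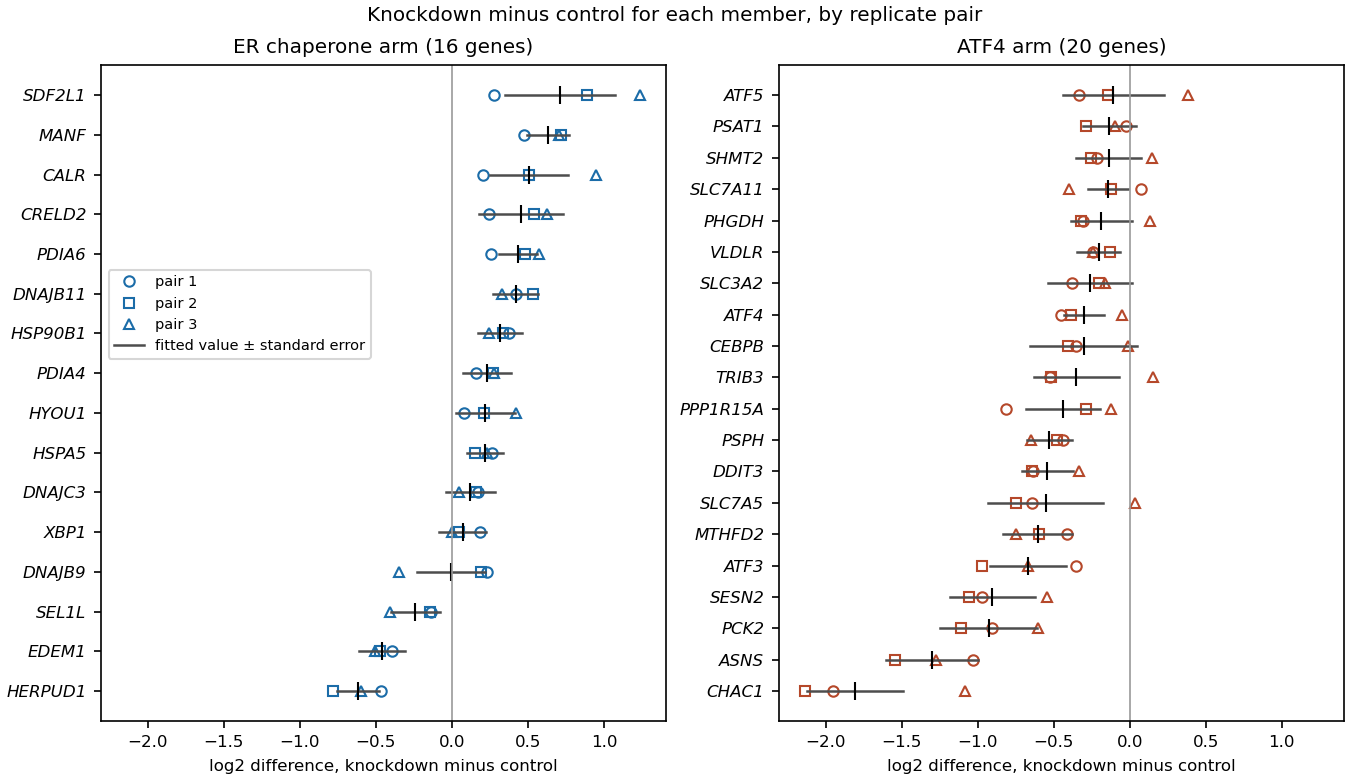
Log2 difference of knockdown minus control for the 16 ER chaperone arm genes (left) and the 20 ATF4 arm genes (right), in order of the fitted log2 fold change. Open symbols are replicate pairs 1, 2 and 3, and the black mark with its line is the fitted value ± its standard error without a block. In the left panel 12 fitted values lie above 0, and in the right panel all 20 lie below it.

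Among the ER chaperones, HSPA5 (BiP, chromosome 9 at 127036948 to 127043482, hg18) is the central chaperone of the ER lumen and holds the stress sensors inactive. HSPA5 was at 1426, 1340.3 and 1438 CPM in controls and at 1709.9, 1487 and 1685 in knockdowns. All knockdown libraries were above all control libraries, and the log2 fold change was 0.22 (standard error 0.12), which did not pass edgeR's test (adjusted p = 0.460, or 0.0675 with the block). HSP90B1 (GRP94, chromosome 12 at 102848319 to 102865833), the ER member of the HSP90 family, was at 1322, 1251 and 1608 CPM in controls and 1718, 1582 and 1907 in knockdowns. Knockdown replicate 2 was below control replicate 3, so the groups overlapped, but each knockdown was above the control of its own number. HSP90B1 rose with the block by 0.32 on the log2 scale (adjusted p = 0.0235 by edgeR, 0.366 without the block). CALR (chromosome 19 at 12910414 to 12916304), the calcium-binding lectin chaperone calreticulin, was at 988, 929 and 512 CPM in controls and 1140.0, 1317 and 989 in knockdowns. Its groups did not overlap, with the gap set by knockdown replicate 3 just above control replicate 1, and pair differences were 0.21, 0.50 and 0.95. CALR rose with the block (adjusted p = 0.0462 by edgeR, 0.420 without it).

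The cochaperones differed among themselves. DNAJB11 (ERdj3, chromosome 3 at 187771161 to 187786283), which delivers unfolded proteins to BiP, was at 132, 108 and 141 CPM in controls and 177, 156 and 177 in knockdowns, with no overlap. Its log2 fold change was 0.42 (standard error 0.15) and it rose with the block (adjusted p = 0.0168 by edgeR, 0.225 without it). SDF2L1 (chromosome 22 at 20326542 to 20328588), a partner of ERdj3, had a log2 fold change of 0.71, the largest of the arm in this fit but not without control replicate 3 (0.47, against 0.70 for MANF) or with an offset for GC content described further on (0.40, against 0.62), at a low level of 11.2, 7.996 and 4.17 CPM in controls and 13.6, 14.9 and 9.91 in knockdowns. Its groups overlapped, its pair differences ranged from 0.28 to 1.24, and it passed neither fit (adjusted p = 0.0501 with the block by edgeR). HYOU1 (log2 fold change 0.22), a large HSP70-like chaperone and exchange factor for BiP, and DNAJC3 (0.12), the cochaperone p58IPK, passed neither fit. DNAJB9 (ERdj4) was at 22.1 ± 6.13 CPM (SD, n = 3) in controls and 22.0 ± 1.98 in knockdowns, a log2 fold change of −0.01 whose sign turned with the block and with most other settings. Its pair differences were 0.23, 0.19 and −0.35, opposite in pair 3 to the other pairs.

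The disulfide isomerases and secreted proteins of the arm were higher in every pair. PDIA6 (chromosome 2 at 10840968 to 10870411), an isomerase that also acts on the sensor IRE1, was at 250.8, 238 and 211 CPM in controls and 299.9, 332 and 313 in knockdowns, with no overlap. Its log2 fold change was 0.43 (standard error 0.12), and it rose with the block (adjusted p = 0.0214 by edgeR, 0.146 without it). PDIA4, the isomerase ERp72, had pair differences of 0.16, 0.27 and 0.27 and passed neither fit. MANF (chromosome 3 at 51397743 to 51401867), a small ER-resident and secreted protein that binds BiP, was at 50.2, 42.3 and 46.5 CPM in controls and 69.6, 69.7 and 75.9 in knockdowns. The means were 46.4 ± 3.97 and 71.7 ± 3.64 (SD, n = 3), the lowest knockdown was well above the highest control, and the log2 fold change was 0.63 (standard error 0.14). Its adjusted p by edgeR was 0.0764 without the block, which missed the threshold, and 0.0110 with it. CRELD2 (chromosome 22 at 48698287 to 48707190), an ER-resident and secreted protein with EGF-like domains, was at 27.9, 27.1 and 15.9 CPM in controls and 33.0, 39.5 and 24.5 in knockdowns. Its groups overlapped because control and knockdown replicate 3 were both the lowest of their group, and it rose with the block (adjusted p = 0.0442 by edgeR, 0.516 without it).

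The 3 ER-associated degradation genes among the members had negative values. HERPUD1 (chromosome 16 at 55523249 to 55535294), a membrane scaffold of the retrotranslocation complex, was at 47.9, 55.9 and 52.6 CPM in controls and 34.7, 32.4 and 34.8 in knockdowns. The groups did not overlap, and the log2 fold change of −0.62 (standard error 0.14) came with an adjusted p of 0.0785 without the block and 0.0146 with it by edgeR. EDEM1 (chromosome 3 at 5204359 to 5236649), which directs misfolded glycoproteins to degradation, was at 119, 129 and 152 CPM in controls and 90.6, 93.0 and 107 in knockdowns. These groups did not overlap either, and EDEM1 fell with the block (log2 fold change −0.46, adjusted p = 0.0124 by edgeR, 0.188 without it). SEL1L, the adaptor of the ubiquitin ligase HRD1, had pair differences of −0.14, −0.15 and −0.40 and passed neither fit. XBP1 (chromosome 22 at 27520548 to 27526560), the transcription factor of the IRE1 branch, was at 81.4, 88.9 and 107 CPM in controls and 92.7, 91.8 and 107 in knockdowns. XBP1 libraries differed more by replicate number than by group, with replicate 3 highest in both, and the log2 fold change of 0.07 did not pass edgeR's test (adjusted p = 0.892, 95% interval −0.29 to 0.43). These gene counts do not separate the spliced from the unspliced XBP1 mRNA.

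By group separation, 5 ER arm genes (HSPA5, DNAJB11, CALR, PDIA6 and MANF) had all knockdown libraries above all controls and 2 (HERPUD1 and EDEM1) had all below. Over all genes tested 8.73% were separated upward and 14.1% downward. By pairs, 11 ER arm genes were higher in all 3 pairs and 3 lower, against 23.5% and 32.4% of all genes tested. The median pair difference of the arm was 0.22, 0.24 and 0.26 for pairs 1, 2 and 3. Expressed per kilobase of exon in controls, HSP90B1 (501 CPM per kb), CALR (424) and HSPA5 (353) had the highest levels of the arm, and SDF2L1 (8.91) and DNAJB9 (9.33) the lowest. HSP90B1 and CALR did not differ beyond their spread (SD 68.0 and 136 CPM per kb, n = 3), and SDF2L1 and DNAJB9 did not either (SD 4.03 and 2.59).

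The transcription factors of the ATF4 arm differed in size of effect, from −0.11 to −0.67 on the log2 scale. ATF4 (chromosome 22 at 38246515 to 38248637), the factor that gives the arm its name, was at 289, 309 and 249 CPM in controls and 211, 236 and 241 in knockdowns. The groups did not overlap, but control replicate 3 was close to knockdown replicate 3, and the log2 fold change of −0.30 (standard error 0.13) did not pass edgeR's test (adjusted p = 0.346, or 0.0900 with the block). ATF4 protein is set largely by translation, which these counts do not measure. DDIT3 (CHOP, chromosome 12 at 56196638 to 56200567), a factor of prolonged stress, was at 16.4, 15.5 and 13.5 CPM in controls and 10.5, 9.94 and 10.7 in knockdowns. These groups did not overlap, and DDIT3 fell with the block (log2 fold change −0.54, adjusted p = 0.0416 by edgeR, 0.172 without it). DDIT3 overlaps MARS (242 CPM in controls) on the opposite strand, and since the strand setting of the counting is not given, its counts are uncertain. ATF3 (chromosome 1 at 210805320 to 210860739), a stress-induced factor of the same family, was at 12.2, 16.2 and 19.7 CPM in controls and 9.58, 8.24 and 12.4 in knockdowns. Its groups overlapped between control replicate 1 and knockdown replicate 3, and it fell with the block (log2 fold change −0.67, adjusted p = 0.0380 by edgeR, 0.247 without it). CEBPB, a dimer partner of ATF4, had a log2 fold change of −0.30 and passed neither fit. ATF5, which is translated under the same control as ATF4, had −0.11 with overlapping groups, passed neither fit, and overlaps NUP62 (101 CPM in controls) on the opposite strand.

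CHAC1, SESN2 and ASNS were among the members with the lowest values. CHAC1 (chromosome 15 at 39032928 to 39036009), which degrades glutathione and is a late target of ATF4, ATF3 and CHOP, was at 16.5, 24.1 and 10.6 CPM in controls and 4.23, 5.43 and 4.98 in knockdowns. The lowest control lay above the highest knockdown by more than the whole spread of the knockdowns, and means were 17.1 ± 6.74 and 4.88 ± 0.607 CPM (SD, n = 3). CHAC1 fell by 1.81 on the log2 scale (standard error 0.32, adjusted p = 0.0423 by edgeR without the block and 0.00748 with it), and pair differences were −1.95, −2.14 and −1.08. That call without the block was lost when control replicate 1 (adjusted p = 0.153), control replicate 2 (0.126) or knockdown replicate 1 (0.259), 2 (0.182) or 3 (0.179) was left out, and was kept without control replicate 3 (0.000153), all by edgeR. SESN2 (chromosome 1 at 28458593 to 28481589), a sestrin that restrains mTORC1 when leucine is scarce, was at 27.6, 33.9 and 17.0 CPM in controls and 14.0, 16.3 and 11.6 in knockdowns. The separation was narrow, between control replicate 3 and knockdown replicate 2, and SESN2 fell with the block (log2 fold change −0.90, adjusted p = 0.0132 by edgeR, 0.170 without it). TRIB3 (log2 fold change −0.35), a pseudokinase that feeds back on ATF4, PPP1R15A (−0.44), the GADD34 subunit that directs dephosphorylation of eIF2α, and VLDLR (−0.21), a lipoprotein receptor, passed neither fit. The pair differences of TRIB3 were −0.52, −0.52 and 0.15.

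**Figure D2:**
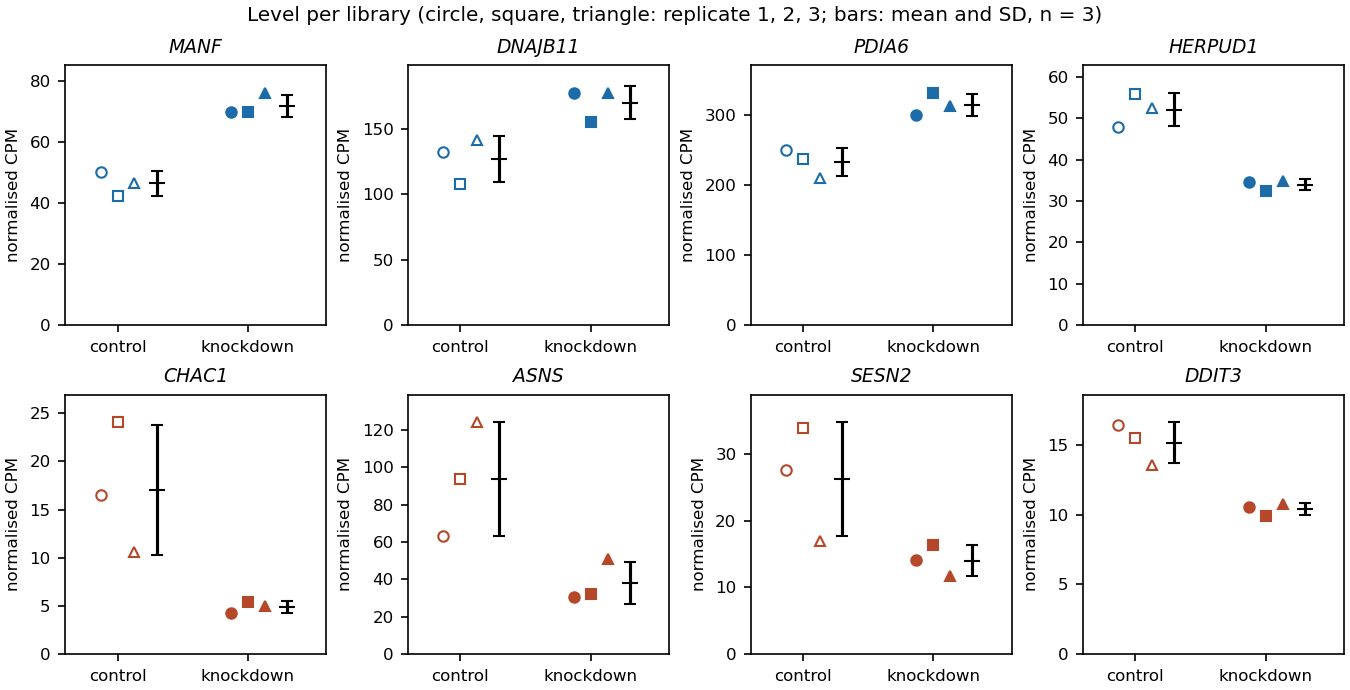
Normalised CPM of 4 ER arm genes (blue) and 4 ATF4 arm genes (red) in each library, with open symbols for controls and filled symbols for knockdowns. Circle, square and triangle are replicates 1, 2 and 3, and bars are the mean and SD of 3 libraries. The 8 genes shown were picked from the members whose groups do not overlap. Over all genes tested 8.73% were separated upward and 14.1% downward. The highest control is 2.27, 1.97 and 1.99 times the lowest for CHAC1, ASNS and SESN2.

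The enzymes of amino acid synthesis were lower in unequal measure. ASNS (chromosome 7 at 97319377 to 97339790), which makes asparagine, was at 63.1, 93.5 and 124 CPM in controls and 30.8, 32.0 and 51.2 in knockdowns. Although the controls spread widely, each knockdown was below each control, and the means were 93.6 ± 30.5 and 38.0 ± 11.4 CPM (SD, n = 3). ASNS had a log2 fold change of −1.30 (standard error 0.30) with an adjusted p by edgeR of 0.0873 without the block, above the threshold, and of 0.00297 with it. PSPH (chromosome 7 at 56046238 to 56086762), the last enzyme of serine synthesis, was at 64.3, 67.2 and 80.7 CPM in controls and 47.3, 48.1 and 51.4 in knockdowns, with no overlap. It fell with the block (log2 fold change −0.53, adjusted p = 0.0156 by edgeR, 0.135 without it), and since near-identical copies of it exist in the genome its counts are uncertain. PHGDH (−0.19) and PSAT1 (−0.13), which catalyse the earlier steps of the same serine pathway, passed neither fit. The 95% intervals without the block were −0.66 to 0.28 for PHGDH and −0.54 to 0.28 for PSAT1.

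Of the mitochondrial enzymes, MTHFD2 (chromosome 2 at 74279198 to 74295932), which oxidises one-carbon units carried by folate, was at 232, 243 and 374 CPM in controls and 174, 161 and 223 in knockdowns. Its groups did not overlap, with replicate 3 highest in both, and it fell with the block (log2 fold change −0.61, adjusted p = 0.0100 by edgeR, 0.247 without it). PCK2 (chromosome 14 at 23633323 to 23643179), which makes phosphoenolpyruvate from oxaloacetate, was at 14.6, 22.2 and 10.2 CPM in controls and 7.78, 10.3 and 6.69 in knockdowns. Control replicate 3 and knockdown replicate 2 were nearly equal, so the groups just overlapped, and PCK2 fell with the block (log2 fold change −0.93, adjusted p = 0.0145 by edgeR, 0.214 without it). SHMT2, which moves one-carbon units from serine to folate, had −0.14 and passed neither fit. The amino acid transporters also passed neither fit. SLC7A5 (LAT1), the leucine carrier, was at 261, 358 and 122 CPM in controls and 167, 213 and 125 in knockdowns, where control replicate 3 was below all knockdowns. Its log2 fold change was −0.55 and its control libraries had the widest range of all members (2.93 times from lowest to highest). Without control replicate 2 its log2 fold change was −0.19 and without control replicate 3 −0.82. The log2 fold change was −0.26 for SLC3A2 (CD98), the heavy chain shared by both carriers, and −0.14 for SLC7A11 (xCT), the cystine carrier. Per kilobase of exon in controls, ATF4 (139.5 CPM per kb) and MTHFD2 (124) were the highest of the ATF4 arm and did not differ beyond their spread (SD 15.1 and 34.6, n = 3), and SLC7A11 (87.8) and PHGDH (84.5) followed. CEBPB, PCK2 and ATF3 were the lowest, at 6.07, 6.10 and 6.44 CPM per kb.

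By separation, 7 ATF4 arm genes (ATF4, DDIT3, CHAC1, SESN2, ASNS, PSPH and MTHFD2) had all knockdown libraries below all controls and 0 had all above. Over all genes tested 14.1% were separated downward and 8.73% upward. By pairs, 14 of the 20 were lower in all 3 pairs and 0 were higher, against 32.4% and 23.5% of all genes tested. The median pair difference was −0.43, −0.44 and −0.20 for pairs 1, 2 and 3, and 5 of the 20 had a positive difference in pair 3 (TRIB3, ATF5, PHGDH, SHMT2 and SLC7A5), against 1 (SLC7A11) in pair 1 and 0 in pair 2. The 2 arms thus had pair medians of opposite sign in each of the 3 pairs. The controls of the ATF4 arm varied more than those of the ER arm, with a median coefficient of variation of 27.4% against 14.0% (22.5% over all genes tested).

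Control replicate 3 lay far from the other controls in the ATF4 arm. The ATF4 arm median, measured from the control mean on the log2 scale, was 0.04, 0.18 and −0.42 for the controls and −0.42, −0.24 and −0.44 for the knockdowns. Control replicate 3 was therefore at the level of the knockdowns for this arm. The ER arm median was 0.05, −0.04 and 0.03 in the controls and 0.28, 0.25 and 0.24 in the knockdowns, so here all controls stood apart from all knockdowns. Without control replicate 3 and without the block, 2 ER arm genes rose (DNAJB11 and MANF) and 5 ATF4 arm genes fell (CHAC1, SESN2, ASNS, PCK2 and SLC7A5) by edgeR's test, where 4.47% of all genes tested rose and 2.84% fell. The log2 fold change of 21 of the 36 members moved by over 1.5 times or changed sign without this library. The corresponding number was 10 without control replicate 1 or 2, and 9, 8 and 12 without knockdown replicates 1, 2 and 3. In the ER arm HSP90B1 became 0.49, DNAJC3 0.31, XBP1 0.25 and DNAJB9 0.30, all higher than with the library. CALR became 0.32, CRELD2 0.29, SDF2L1 0.47 and HYOU1 0.11, and EDEM1 −0.29 and SEL1L −0.02, all nearer to 0. In the ATF4 arm MTHFD2 became −0.29, ATF3 −0.43, VLDLR −0.05 and SLC7A11 −0.03, nearer to 0, and PSAT1 changed sign to 0.05. TRIB3 became −0.53, CEBPB −0.52, SLC3A2 −0.43, ATF5 −0.34, PHGDH −0.30 and SHMT2 −0.27, farther from 0.

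The deviations of 5 of the 6 libraries from their group means moved with the GC content of the transcripts. The median GC content was 48.3% for the ER arm and 57.7% for the ATF4 arm, against 49.6% for the 11836 tested genes with a GC value. In control replicate 3 the difference of a member from its own group mean correlated with GC at a Spearman rho of −0.88 over the 36 members, and over all 11836 genes at −0.85. In control replicates 1 and 2 the rho over members was 0.70 and 0.82, and in knockdown replicates 1, 2 and 3 it was 0.16, 0.78 and −0.72. These are correlations across genes that share a library, and deviations within a group sum to 0, so they describe the libraries and carry no p. SLC7A5, at 60.3% GC, was −0.88 from its group mean in control replicate 3, and ASNS, at 44.7% GC, was 0.46. Read coverage along the transcripts also differed in that library. The share of a gene's exon counts that fell in the first 50% of its exonic length from the 5′ end was 29.4% (median over 16 ATF4 arm genes) in control replicate 3 and 37.6% to 39.9% in the other libraries, and over 14 ER arm genes 43.4% against 47.8% to 49.5%. The median over all 8875 such genes was 45.4% against 46.5% to 48.4%. Of the 30 members read in this way 18 had their lowest share in control replicate 3, and 8 had their highest there (CALR, HSP90B1, HYOU1, PDIA4, PDIA6, DDIT3, PHGDH and SLC7A5). The first exon of HSPA5 held 0.556% of its exon counts in control replicate 3 and 4.95% and 4.85% in control replicates 1 and 2. The cause of these differences between libraries was not tested.

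**Figure D3:**
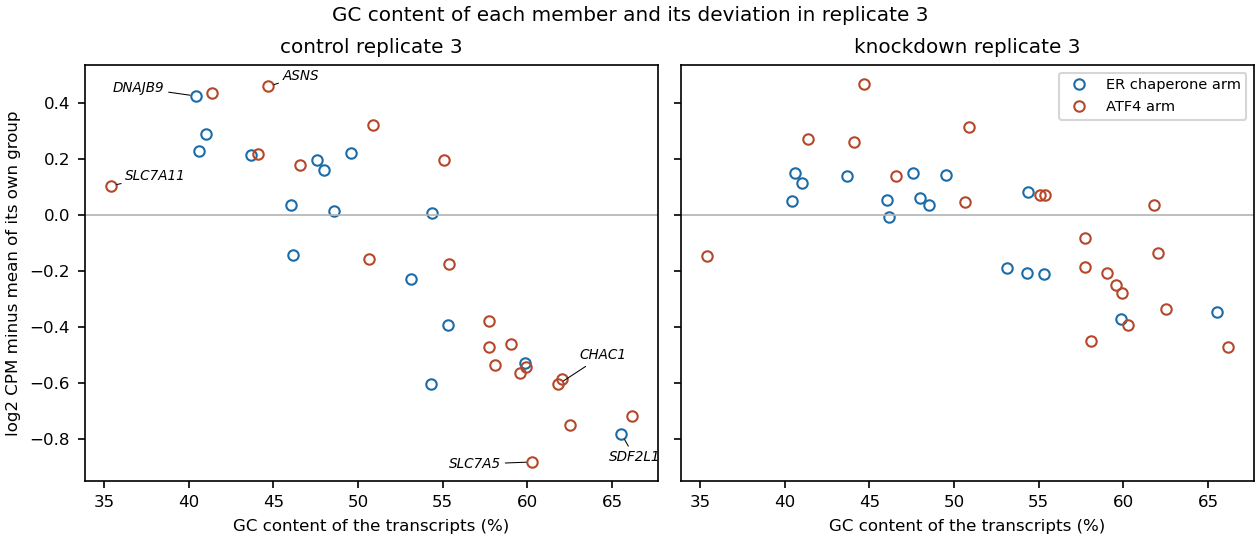
GC content of the transcripts of each member (percent, horizontal axis) against its log2 CPM minus the mean of its own group (vertical axis), for replicate 3 of the control (left) and of the knockdown (right). Each point is 1 of the 36 members, in blue for the ER arm and red for the ATF4 arm. In both libraries most members of high GC content lie below their group mean, with a Spearman rho of −0.88 and −0.72.

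An offset for the relation of counts to GC content in each library, chosen after the data were seen, was fitted to the 11836 genes with a GC value. With it the ATF4 arm median became −0.13, 0.02 and 0.17 for the controls and −0.50, −0.55 and −0.37 for the knockdowns. All controls were then above all knockdowns. The ER arm median was 0.02, 0.02 and −0.03 in controls and 0.29, 0.30 and 0.27 in knockdowns. Pair medians were −0.34, −0.48 and −0.53 for the ATF4 arm and 0.29, 0.29 and 0.21 for the ER arm, and 19 of 20 ATF4 arm genes were lower in all 3 pairs, the exception being PSAT1, while 12 ER arm genes were higher and 3 lower. Over all genes with the offset 33% were lower and 32.1% higher in all 3 pairs. By edgeR's test with this offset and no block, 7 ER arm genes rose (HSPA5, HSP90B1, DNAJB11, DNAJC3, CALR, PDIA6 and MANF) and 2 fell (HERPUD1 and EDEM1), and 10 ATF4 arm genes fell (DDIT3, TRIB3, CHAC1, SESN2, PPP1R15A, ASNS, MTHFD2, PCK2, SLC7A5 and SLC3A2). Over all genes, 10.1% rose and 10.5% fell in that fit. With the block as well, 12 ER arm genes rose and 2 fell and 17 ATF4 arm genes fell, beside 19.7% and 20.4% of all genes. With the offset alone, the log2 fold change of CHAC1 was −1.98 (adjusted p = 6.58e-04 by edgeR), that of SESN2 −1.02 (4.55e-04), that of ASNS −1.18 (0.00526) and that of SLC7A5 −0.65 (0.00528). HSPA5 had 0.32 (0.0326), HSP90B1 0.43 (0.00363) and HERPUD1 −0.52 (0.00504). ATF4 itself, at −0.32, did not pass with the offset alone (adjusted p = 0.116 by edgeR) and fell with the offset and the block (6.77e-04).

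**Figure D4:**
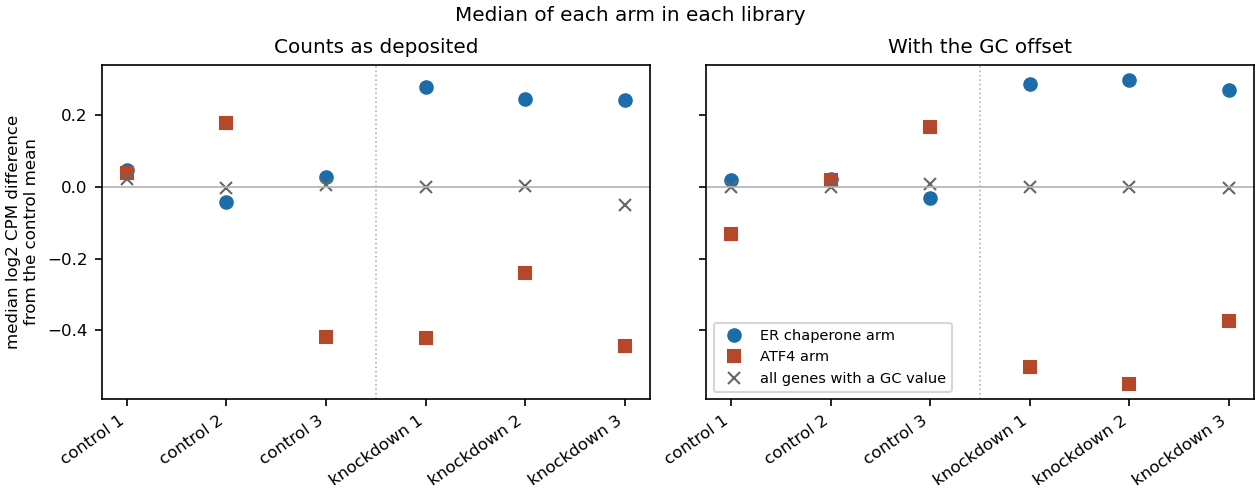
Median log2 CPM difference from the control mean (vertical axis) of the 16 ER arm genes, the 20 ATF4 arm genes and the 11836 genes with a GC value in each of the 6 libraries, from counts as deposited (left) and with an offset for GC content per library (right). On the left the ATF4 arm in control replicate 3 lies at −0.42, at the level of the knockdowns, and on the right it lies at 0.17, above them.

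Other genes of the pathway, from lists beyond the 36 members, were read from the same fit. These lists were chosen with earlier results of these data known, so they are not independent support for either arm. Of 71 listed genes 68 were found and tested. The 12 aminoacyl-tRNA synthetases, which load amino acids on tRNA and many of which are ATF4 targets, all had negative values in all 3 pairs, with a median log2 fold change of −0.39. Of these, 1 fell without the block (0 with DESeq2's size factors in edgeR) and 8 with it. Over all genes tested, 0.772% rose and 0.902% fell without the block, and 7.04% rose and 10.3% fell with it. YARS, the tyrosine enzyme, fell from 271 ± 14.4 to 168 ± 7.29 CPM (SD, n = 3), a log2 fold change of −0.69 (adjusted p = 0.0391 by edgeR, 0.00409 with the block), and AARS, the alanine enzyme, fell with the block (−0.62, adjusted p = 0.00556 by edgeR, 0.0696 without it). Of 25 other tested ATF4 target genes, 21 had negative values (19 with DESeq2's size factors), with a median of −0.45 (−0.24 without knockdown replicate 1), and 0 passed without the block and 7 fell with it. TUBE1, ε-tubulin, at 19.3 ± 4.45 CPM without and 8.72 ± 2.08 with the knockdown (SD, n = 3; −1.14 on the log2 scale), and CTH, which makes cysteine (−0.93), fell with the block (adjusted p = 0.00425 and 0.0133 by edgeR).

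Of 21 other tested genes of ER folding and degradation, 18 had positive values, with a median of 0.12 (0.21 without control replicate 3, 0.22 without knockdown replicate 1 and 0.20 without knockdown replicate 3). With the block 3 of them rose and 1 fell, where 7.04% of all genes tested rose and 10.3% fell. EDEM3, a mannosidase of glycoprotein degradation, was at 76.9 ± 17.9 CPM without and 107 ± 10.7 with the knockdown (SD, n = 3; 0.47 on the log2 scale), and PDIA3, the isomerase that works with calreticulin, had 0.27. Both rose with the block (adjusted p = 0.0302 and 0.0334 by edgeR), as did SEC24D, a coat protein of vesicles leaving the ER (0.29, adjusted p = 0.0377). The list also holds genes of degradation, of which DERL1, DERL2, SYVN1, OS9, EDEM2, EDEM3 and VIMP had positive values, from 0.0084 to 0.47, and DERL3 a negative one (−0.09). UFM1, a ubiquitin-like modifier attached to ribosomes at the ER, was at 72.7, 63.1 and 104 CPM in controls and 39.0, 29.2 and 42.6 in knockdowns. It was the lowest of this list, with a log2 fold change of −1.11, and fell with the block (adjusted p = 0.00325 by edgeR, 0.0718 without it). The 10 tested stress sensors and eIF2 kinases and their partners all had negative values (median −0.21). The number was 9 of 10 with DESeq2's size factors, 7 when control replicate 3 was left out (median −0.13) and 8 when knockdown replicate 1 was (median −0.13). With the block ATF6 (−0.41), the kinase GCN2 (EIF2AK4, −0.29) and eIF2α itself (EIF2S1, −0.41) fell (adjusted p = 0.0316, 0.0339 and 0.0357 by edgeR). None of the 10 passed without the block by edgeR. In that fit 0 of the 10 had an unadjusted p below 0.05, where 2154 of all 13856 genes tested did.

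Exon use within the members was tested because the study asked about splicing. edgeR's diffSpliceDGE compared each of 328 member exons with the rest of its gene. In both fits 0 member exons passed the adjusted threshold. Of all 123109 exons tested, 0 passed without the block and 10 with it. The test thus called hardly any exon of any gene, and 0 member calls do not show that exon use was unchanged. Without the block 1 had an unadjusted p below 0.05 (0.214% of all exons tested) and with the block 12 had (1.96% of all exons). The pair differences of single exons varied between members. In the ER arm 110 of 170 tested exons were higher and 22 lower in each of the 3 pairs, and in the ATF4 arm 1 of 158 was higher and 78 were lower. Of all exons tested 25.5% were higher and 22.7% lower in each pair. Exons of a gene share the change of that gene, so these counts restate the gene values and are not independent observations. All 10 tested exons of DNAJB11 and of PDIA4, all 11 of PDIA6, all 9 of CALR and all 4 of MANF were higher in each of the 3 pairs. By contrast, 12 of 14 ASNS exons, 7 of 8 HERPUD1 exons and 9 of 12 EDEM1 exons were lower in each pair. In other genes fewer exons were, with 6 of 9 in SESN2, 5 of 9 in PCK2, 2 of 3 in ATF3, 2 of 4 in DDIT3 and 1 of 2 in CHAC1.

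Listed MSI1 crosslink sites in the members were few for most genes and most numerous in 2 amino acid transporters, SLC7A5 and SLC7A11. Of all sites in lists 1, 2 and 3, only 4.4%, 2.77% and 3.74% had the authors' p below 0.05. The 3 deposited iCLIP lists held 1746795, 145718 and 208722 single-nucleotide sites, of which 4557, 501 and 751 lay in the 36 members. SLC7A5 held 1872, 62 and 164 sites and SLC7A11 held 931, 242 and 292 in lists 1, 2 and 3. SLC3A2, the heavy chain of both, held 42, 8 and 7. CHAC1 held 5, 0 and 1, ASNS 15, 1 and 4, and ATF4 33, 1 and 8. Sites at the same nucleotide and strand in all 3 lists were found in 6 members, at 31 positions, all in exons. These were SLC7A11 with 13 positions, SLC7A5 with 9, PDIA4 with 5, HSPA5 with 2, and PSAT1 and SLC3A2 with 1 each. Per kilobase of exon the order was SLC7A5 (1.98), PDIA4 (1.69), SLC7A11 (1.35), HSPA5 (0.504), PSAT1 (0.457) and SLC3A2 (0.384). Over all genes tested, 9.09% held a shared position and 2.53% one in an exon. Abundant transcripts can give more sites, and among genes at 100 CPM or more in controls 6 of 18 members held an exonic shared position, where 9.48% of all such genes did. That floor does not match the genes by level or by exon length, so the comparison is not corrected for either.

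Of the 31 shared positions 30 lay in the last listed exon of their gene (96.8%), as did 92.5% of the 1946 exonic shared positions over all genes tested. In SLC7A11 (chromosome 4, minus strand, hg18) the 13 positions ran from 139305780 to 139311327, and in SLC7A5 (chromosome 16, minus strand) the 9 ran from 86421172 to 86423788. In PDIA4 (chromosome 7, minus strand) the 5 positions lay within 7 nucleotides, from 148331629 to 148331635. HSPA5 (chromosome 9, minus strand) had 127038628 and 127038642. All of these, and the 1 position of PSAT1, fell in the last listed exon, and that of SLC3A2 (chromosome 11, 62394882, plus strand) lay in exon 2 of 13. No position shared by the lists had the authors' p below 0.05 in all 3, in any member. Such positions were rare in general, in 53 of the 13856 genes tested. The log2 fold changes of the 4 members with 2 or more shared positions were −0.14 for SLC7A11, −0.55 for SLC7A5, 0.23 for PDIA4 and 0.22 for HSPA5, and none passed without the block by edgeR, where 1 of all 36 members did. With the GC offset HSPA5 rose (adjusted p = 0.0326) and SLC7A5 fell (0.00528) by edgeR, where 10.1% of all genes rose and 10.5% fell. Without control replicate 3 SLC7A5 fell (0.0257 by edgeR), where 4.47% of all genes tested rose and 2.84% fell. CHAC1 and ASNS held 0 shared positions, and CHAC1, with 0 sites in list 2, could hold none. iCLIP was done in control cells only, so no comparison between groups exists.

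**Figure D5:**
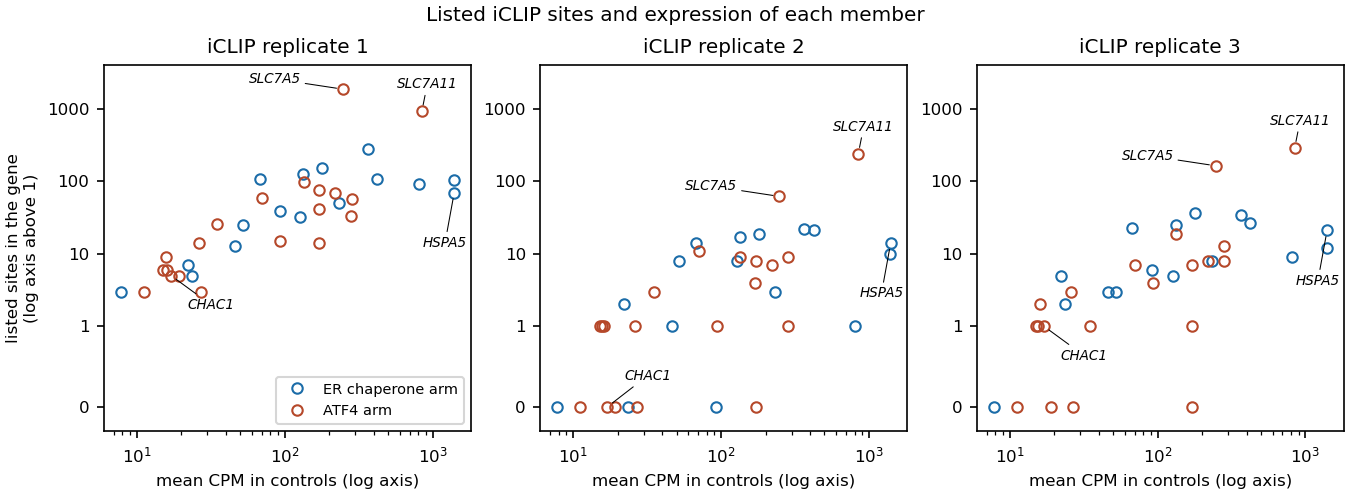
Number of listed MSI1 iCLIP sites in each of the 36 members (vertical axis, linear from 0 to 1 and logarithmic above) against the mean CPM in RNA-seq controls (horizontal axis, logarithmic), for the 3 lists. ER arm genes are blue and ATF4 arm genes red. SLC7A5 and SLC7A11 lie above the other members in each list, and CHAC1 lies among the members with few or 0 sites.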

How the data were processed

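RNA-seq of 3 control and 3 MSI1 knockdown libraries and iCLIP of 3 control samples were used, grouped and numbered by sample title. For RNA-seq the deposited values are raw read counts of the authors, 1 table of genes and 1 of exons per library. For iCLIP they are lists of single-nucleotide sites, each with a p-value of the authors. Per the submitters' processing notes the genome build was hg18. The aligner, counter, strand setting and site caller were not given in the sources used here. Per the labels' protocols only iCLIP is described.

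Gene counts for all 20848 genes were tested with edgeR 4.0.16 (quasi-likelihood test, TMM, filterByExpr) in R 4.3.3, group alone in the design (4 residual degrees of freedom), Benjamini-Hochberg adjustment over the 13856 genes tested and a threshold of 0.05. Log2 values per library use a prior count of 2. Deviations from group means of same-numbered libraries correlated at 0.32, 0.73 and 0.75, all above 0.1 (differently numbered ones at −0.72 to 0.49, the highest being control replicate 1 with knockdown replicate 2, above its own number), so the numbers were taken as pairs and a replicate block (2 residual degrees of freedom) was fitted as an alternative. Such deviations sum to 0 within a group and moved with GC content in most libraries, so the pairing is not established. Every library pair differed by more than sampling noise (chi-square of at least 21.2 per gene). DESeq2 1.42.0 and limma 3.58.1 gave further alternatives.

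iCLIP positions were called shared when the nucleotide and strand were the same in all 3 lists. GC content is the median over GENCODE 29 transcripts (85.4% of tested genes matched by symbol). The offset is a lowess of each library's log2 deviation on it (span 0.3). The shares of counts toward the 5′ end use genes with at least 4 exons and 200 exon counts in every library. Promoters and motif positions are from RefSeq (GRCh38.p14), and no coordinates were converted.

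The members and lists were chosen with earlier results of these data known. All 36 members are described, in full where called in the fit without or with the block or where they define an arm (HSPA5, XBP1, ATF4, DDIT3 and ASNS). Of the wider lists, genes called without the block and up to 2 per direction and list called with it are named, by adjusted p, and EIF2S1 and SEC24D were named after their values were seen. The gene and exon tests were tried on simulated data.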

Additional observations from a re-analysis of the deposited data

How the results depend on the processing

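Medians of both arms kept their sign in every setting run, from 0.23 to 0.35 for the ER arm and from −0.24 to −0.50 for the ATF4 arm, while the number of calls depended on the setting. Without a block 232 of all genes were called, 0 in the ER arm and 1 in the ATF4 arm. The pairing by replicate number raised this to 2398 of all genes, 8 ER and 8 ATF4 arm genes, and with DESeq2's size factors as well to 2278 (1163 higher and 1115 lower, against 107 and 125 without the block), 11 and 7. DESeq2 called 798, 2 and 2. The ER arm median was 0.27 with DESeq2's size factors in edgeR and 0.27 with DESeq2, 0.28 without the filter on low counts and 0.28 with the block and DESeq2's size factors.

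Leaving out 1 library at a time gave 0 to 1028 calls over all genes (0 without knockdown replicate 1, 1028 without control replicate 3), 0 to 2 in the ER arm, 0 to 5 in the ATF4 arm, ER arm medians of 0.23 to 0.33 and ATF4 arm medians of −0.50 to −0.24. The following were chosen after the data were seen. The block without replicate 3 of both groups (1 residual degree of freedom) called 4456 genes, 12 ER and 16 ATF4 arm genes, with an ER arm median of 0.26. Counts from the 3′ part of each gene gave an ER arm median of 0.32, and with the block 1656 calls, 7 and 6 in the arms and an ER arm median of 0.35. The GC offset gave 2430 calls, 9 and 10 in the arms and a median of 0.28 for the ER arm, and with the replicate block 4746, 14, 17 and 0.28.

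DNAJB9 turned positive with the block (0.023), DESeq2's size factors in edgeR (0.034), DESeq2 (0.034), no filter (0.034), limma-trend (0.023), the block with DESeq2's size factors (0.070), the block without replicate 3 (0.26), counts from the 3′ part alone (0.025) or with the block (0.053), and the GC offset alone (0.15) or with the block (0.15). Leaving out 1 library moved it between −0.16 and 0.30, positive in 4 of the 6 cases. In the same way XBP1 ranged from −0.014 to 0.25, ATF5 from −0.34 to 0.17, PSAT1 from −0.23 to 0.047 and SHMT2 from −0.27 to 0.0084. ATF5 turned to 0.0069 with the block and DESeq2's size factors, and SLC7A11 to 0.026 with the block without replicate 3. The cause of these turns was not tested. Limited to the authors' p below 0.05, 0 members held a shared iCLIP position, and allowing 5 nucleotides between lists 11 did. Of all 13856 genes tested 53 and 2448 did.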
